A study of Mus musculus with 8 samples.

Results

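The Iroquois family comprises 6 mouse genes, *Irx1* to *Irx6*, and all 6 were found by symbol among the 55523 entries of the gonadotrope count table. The family was proposed with its levels in these samples already known, so its members were chosen by values of the same table. The levels and the differences between the sexes of the members are therefore given as a description, and no call or interval given for a member is evidence beyond that choice. RNA was measured in gonadotropes sorted as EGFP-positive cells from pituitary glands of Ad4BP-BAC-EGFP mice, with 4 female and 4 male samples. Ad4BP is another name for NR5A1, and the transgene is a bacterial artificial chromosome in which EGFP marks cells that use the *Nr5a1* gene. Both sexes carry the transgene, no treatment is given for any sample, and sex is the difference between the groups. The age of the mice and whether a sample held 1 animal or several are not given in the sources used here, so the spread between samples may be technical in part.

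Iroquois proteins are transcription factors with a homeodomain of the TALE class, in which extra residues lengthen the loop between the first helices. They are known for dividing embryonic tissues into territories and for roles in heart, limb, retina and neural tube development. In mammals the genes lie in a pair of clusters that arose by duplication, *Irx1*, *Irx2* and *Irx4* in one and *Irx3*, *Irx5* and *Irx6* in the other. Gonadotropes are the anterior pituitary cells that make LH and FSH, and *Nr5a1* encodes a nuclear receptor that marks them within the pituitary.

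The chromosomal positions are those of GRCm38 (mm10) in the GENCODE M21 annotation, in which all 6 genes are protein coding. On chromosome 13, *Irx1* lies at chr13:71957921-71963723 on the minus strand, *Irx2* at chr13:72628820-72634198 on the plus strand and *Irx4* at chr13:73260479-73269608 on the plus strand. The gaps between these neighbours are 665 and 626 kb. On chromosome 8, *Irx3* lies at chr8:91798525-91802067 on the minus strand, *Irx5* at chr8:92357625-92376286 on the plus strand and *Irx6* at chr8:92674288-92680956 on the plus strand. *Irx3* and *Irx5* are 556 kb apart, and *Irx5* and *Irx6* are 298 kb apart. Each of the 6 genes has 1 entry of its own in the count table. The entries of *Irx1*, *Irx2* and *Irx4* carry Ensembl names, and those of *Irx3*, *Irx5* and *Irx6* carry names of an assembled locus, a step that the study's methods do not mention. The floors and intervals given for counts take the entries as plain read counts.

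The 3 members that carried nearly all of the family's counts are shown by the coding bases of their homeobox, because this is where the members are most alike and where a read could be hardest to assign. The window holds 189 bases, or 63 codons, within 1 exon of each gene, and was read from the annotated transcripts on GRCm38. It spans chr8:91800484-91800672 on the minus strand in exon 2 of *Irx3*, chr8:92359639-92359827 on the plus strand in exon 2 of *Irx5*, and chr8:92677248-92677436 on the plus strand in exon 4 of *Irx6*. The sequences run 5′ to 3′ on the coding strand, and capitals mark the 22 positions at which the 3 genes are not all the same.
Irx3: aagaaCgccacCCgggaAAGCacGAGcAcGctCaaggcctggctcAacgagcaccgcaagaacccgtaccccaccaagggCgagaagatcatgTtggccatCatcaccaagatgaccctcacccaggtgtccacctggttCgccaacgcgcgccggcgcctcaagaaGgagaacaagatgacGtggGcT
Irx5: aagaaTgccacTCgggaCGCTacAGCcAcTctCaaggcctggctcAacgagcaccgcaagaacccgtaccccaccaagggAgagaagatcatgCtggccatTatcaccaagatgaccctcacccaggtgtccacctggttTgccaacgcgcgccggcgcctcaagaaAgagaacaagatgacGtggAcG
Irx6: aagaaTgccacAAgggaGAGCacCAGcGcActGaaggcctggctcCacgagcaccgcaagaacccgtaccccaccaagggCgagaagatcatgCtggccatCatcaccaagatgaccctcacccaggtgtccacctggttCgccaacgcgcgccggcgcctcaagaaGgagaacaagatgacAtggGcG

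Over all 6 members, 149 of the 189 positions held the same base. Identity between pairs of members was between 86.2% and 93.7%, and *Irx3* and *Irx6* were the closest pair, with 177 identical bases. The longest run of bases shared exactly by the annotated transcripts of a pair was also that of *Irx3* and *Irx6*, at 88 bases, against reads of 150 bases. The shortest of the longest runs was 23 bases. The library kit does not mark strand, so reads of a gene and of an antisense partner cannot be told apart. *Irx3os* overlaps *Irx3* by 1653 bp, and *Gm45505* overlaps the end of *Irx6* by 785 bp.

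Library totals ranged from 18774578 to 31302588 counts for females and from 22716536 to 28621582 for the 4 males. Counts were scaled to counts per unit of library size (CPM) with TMM factors, which adjust each library size for differences in composition. A floor of 3 counts corresponded to between 0.0921 and 0.146 CPM, and it covers counting error only, since PCR copies of one molecule are counted more than once. Male replicates 1 to 4 are called males 1 to 4 and female replicates 1 to 4 females 1 to 4. Male 1 is shown apart, because the study left it out and because *Nr5a1* was 16.3 CPM in it against 584 to 801 CPM in males 2 to 4 and 862 to 1266 CPM in the females. The nuclear noncoding RNA *Malat1* was 110079 CPM in male 1, 7790 to 9998 CPM in males 2 to 4 and 12190 to 15167 CPM in females, so its level moved with sex too, and its part in the levels of the members was not tested. All 5 gonadotrope markers (*Lhb*, *Fshb*, *Cga*, *Gnrhr* and *Nr5a1*) were detected in every sample, and none was at 0. Their summed level was 28423 CPM in male 1, between 67930 and 75717 CPM in the other males and between 21488 and 34863 CPM in the females. The 5 markers did not move alike between the females and males 2 to 4. *Fshb* was higher in these males, at 16894 to 30905 CPM against 1402 to 5699 CPM, and *Nr5a1* was lower. *Lhb*, *Cga* and *Gnrhr* overlapped between them. In these bulk samples, fewer cells that use a gene and less RNA per cell cannot be told apart.

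*Irx6*, which encodes a factor known from bipolar cells of the retina, was the gene in which the sexes stood apart. It had 0 counts in females 1 to 3 and 7 counts, or 0.303 CPM, in female 4. In males it had 319, 300 and 133 counts in replicates 2 to 4, or 12.6, 11.3 and 6.04 CPM. Male 1 had 173 counts, or 7.55 CPM, which lay within the range of the other males although its *Nr5a1* level did not. Every male sample was above every female sample, and the lowest male was well clear of the only female with a count. The mean was 0.0757 ± 0.151 CPM in females (SD, n = 4) and 9.98 ± 3.47 CPM in males 2 to 4 (SD, n = 3), or 9.37 ± 3.08 CPM (SD, n = 4) with all males.

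**Figure D1:**
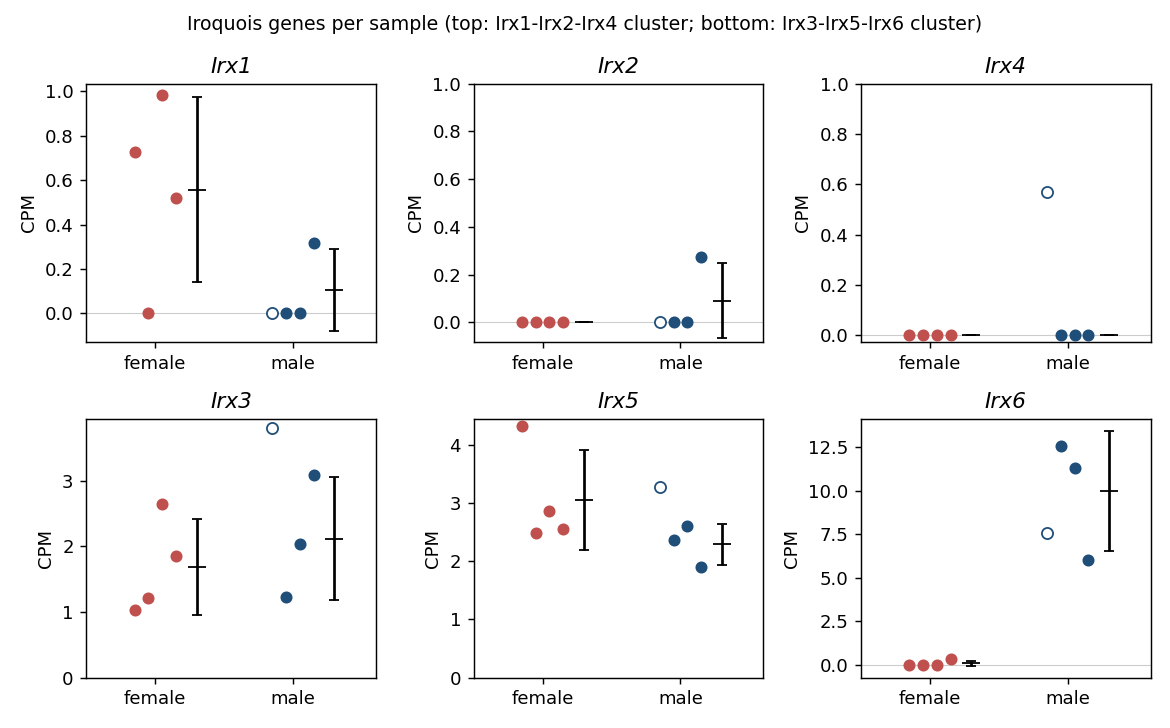
Each panel plots the CPM of 1 Iroquois gene in each sample, with females in red, males in blue and male 1 as an open circle; the bars give the mean and SD of the 4 females and of males 2 to 4, and each panel has its own linear scale. *Irx6* lies between 6.04 and 12.6 CPM in the males and at most at 0.303 CPM in the females, whereas *Irx3* and *Irx5* overlap between the sexes.

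The fitted log2 difference of *Irx6*, male over female, was 6.98 (SE 1.08). A fitted value against a group with almost no counts depends on the small count that the fit adds, so the ratio of pooled counts is given too. It rested on 752 counts in males 2 to 4 and 7 counts in the females, and was 145, with an exact 95% interval of 69.9 to 361 that covers counting error only. The 7 female counts all came from 1 library. Without female 4, *Irx6* was at least 259-fold higher in males, taking the floor of 3 counts over the remaining females. In male 1 alone, its level was 99.8 times the female mean.

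Of the 6 members, 4 passed the filter on low counts and entered the edgeR fit of males 2 to 4 against the females over 20152 genes, where *Irx1* entered only through its female counts and *Irx6* only through its male counts. In that fit 1 member, *Irx6*, was past the adjusted p threshold of 0.05, and 2.34% of all genes tested were past it in either direction and 0.983% with the higher level in males. It was also the 1 member for which all of males 2 to 4 lay above all females, an arrangement seen in 11.5% of the genes tested. Since the family was proposed with these values known, nothing is read from these shares. The *Irx6* call was lost in 6 of the 7 fits that left out 1 library, in all but that without female 4.

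Genes near 0 in every female and clearly present in males 2 to 4 were few. With limits set after the *Irx6* values had been seen, at least 5 CPM in each of these males and under 0.5 CPM in each female, 8 genes were found in the whole table. Of these, *Ddx3y*, *Eif2s3y*, *Kdm5d* and *Uty* lie on the Y chromosome. The other 4 were *Irx6*, *Cntnap4*, *1810009A15Rik* and *Gm4070*. In male 1, *Cntnap4* was 5.81 CPM and *1810009A15Rik* 4.89 CPM, while *Gm4070* was at 0.

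*Irx5*, which encodes a factor known for roles in the heart and the retina, was detected in all 8 samples. It was 4.32, 2.49, 2.85 and 2.55 CPM in females 1 to 4 and 2.36, 2.60 and 1.91 CPM in males 2 to 4. Male 1 was at 3.27 CPM. The highest value was that of female 1, and the ranges of the sexes overlapped. The mean was 3.05 ± 0.859 CPM in females (SD, n = 4) and 2.29 ± 0.354 CPM in males 2 to 4 (SD, n = 3), and the fitted log2 difference was -0.44 (SE 0.30). The overlap depended on the scaling. With library size alone, females lay between 2.68 and 4.82 CPM and males 2 to 4 between 1.69 and 2.41 CPM, with male 1 at 3.30 CPM.

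*Irx3*, which encodes a factor known for patterning the neural tube, was also detected in all 8 samples. It was 1.03, 1.22, 2.64 and 1.86 CPM in females 1 to 4 and 1.22, 2.04 and 3.09 CPM in males 2 to 4. The highest level, 3.80 CPM, was in male 1. The sexes overlapped over most of their range, with means of 1.69 ± 0.728 CPM in females (SD, n = 4) and 2.12 ± 0.936 CPM in males 2 to 4 (SD, n = 3). The fitted log2 difference was 0.30 (SE 0.48), and its sign turned without male 4, to -0.09. The antisense gene *Irx3os* had between 0 and 10 counts in any sample.

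The members of the chromosome 13 cluster had few counts, at most 32 in any sample, and each was at 0 in several samples. *Irx1*, which encodes a factor of limb and lung development, had 17, 0, 32 and 12 counts in females 1 to 4, 7 counts in male 4 and 0 in the other males. Its mean was 0.557 ± 0.417 CPM in females (SD, n = 4) and 0.106 ± 0.184 CPM in males 2 to 4 (SD, n = 3), and the fitted log2 difference of -2.41 had an SE of 1.71. Without male 4, whose 7 counts were the only male ones, the fitted value was -6.84, which is not a bound. *Irx2* had 6 counts in male 4, or 0.272 CPM, and 0 in the other 7 samples. *Irx4*, known for its role in the ventricles of the heart, had 13 counts in male 1, or 0.568 CPM, and 0 in the other 7 samples. For *Irx2* and *Irx4*, 0 counts in a sample allow a level of up to the floor, and a lower level was not detectable at this depth.

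Levels of different genes were compared per kilobase of exon in GENCODE M21. The exons used for counting are not given in the sources used here, and the chromosome 8 members were counted on assembled loci, so the length counted may differ from the length used. In females, *Irx5* had the highest level, 0.976 ± 0.275 CPM per kb (SD, n = 4), followed by *Irx3* at 0.610 ± 0.264, *Irx1* at 0.213 ± 0.159 and *Irx6* at 0.0224 ± 0.0449 CPM per kb. *Irx2* and *Irx4* were at 0 there. The neighbours *Irx5* and *Irx3* in this order lay within their summed SDs of each other, as did *Irx3* and *Irx1*, and *Irx1* and *Irx6*.

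In males 2 to 4, *Irx6* led with 2.96 ± 1.03 CPM per kb (SD, n = 3). *Irx3*, at 0.766 ± 0.339, and *Irx5*, at 0.733 ± 0.113 CPM per kb, lay below it by more than the summed SDs and did not differ from each other beyond their spread. *Irx1* followed at 0.0404 CPM per kb and *Irx2* at 0.0277 CPM per kb. Among protein-coding genes with counts, the male level of *Irx6* stood at percentile 47.4, and the female level at percentile 2.85. *Irx5* moved little by this measure, from percentile 29.0 in females to 24.4 in males, and *Irx3* from 23.4 to 25.0.

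The clusters were then compared as sums over their 3 genes. The *Irx3*-*Irx5*-*Irx6* cluster summed to 4.81 ± 0.812 CPM (SD, n = 4) in females, with samples from 3.71 to 5.49 CPM. It summed to 14.4 ± 2.90 CPM (SD, n = 3) in males 2 to 4, with samples from 11.0 to 16.2 CPM, and to 14.6 CPM in male 1. The *Irx1*-*Irx2*-*Irx4* cluster summed to 0.557 ± 0.417 CPM (SD, n = 4) in females, 0.197 ± 0.341 CPM (SD, n = 3) in males 2 to 4 and 0.568 CPM in male 1. Every sample thus had more of the chromosome 8 cluster than of the chromosome 13 cluster. In females the chromosome 8 cluster held 90.7 ± 6.54% (SD, n = 4) of the family's CPM, and in males 2 to 4 it held 98.3 ± 2.93% (SD, n = 3). Per kilobase these shares were 89.6% and 98.2%.

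**Figure D2:**
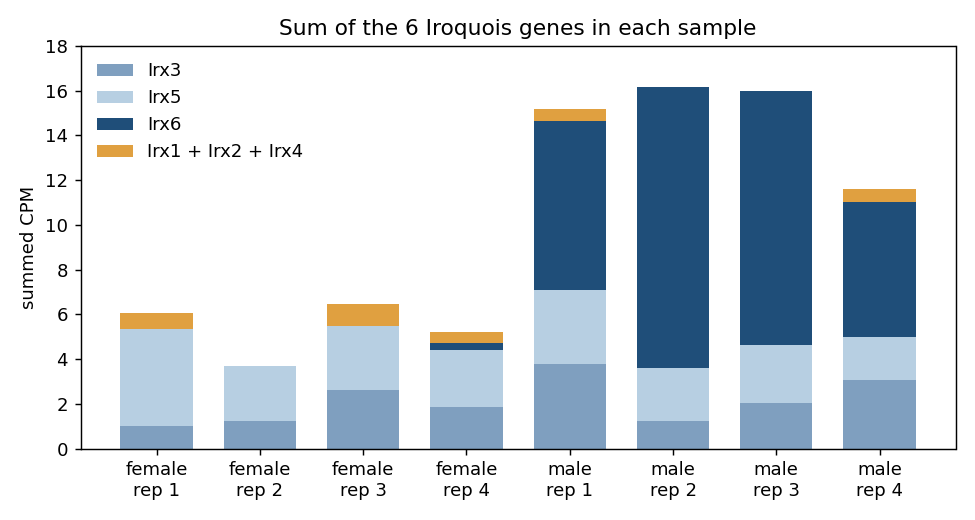
Each bar is 1 sample and stacks the CPM of *Irx3*, *Irx5*, *Irx6* and the sum of *Irx1*, *Irx2* and *Irx4*, on a linear axis from 0. The males differ from the females by the *Irx6* segment, which is 49.7% of the bar in male 1 and between 52.0% and 77.8% in the other males.

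With TMM scaling, the difference within the chromosome 8 cluster lay in *Irx6*. With library size alone, *Irx5* also separated, with males 2 to 4 below all females. *Irx3* and *Irx5* together were 4.74 ± 0.839 CPM in females (SD, n = 4) and 4.41 ± 0.734 CPM in males 2 to 4 (SD, n = 3), and the samples overlapped. Male 1 was above all other samples in this sum, at 7.07 CPM. The share of the family's CPM that came from *Irx6* was 66.9 ± 13.4% (SD, n = 3) in males 2 to 4. In females it was 0% in 3 samples and 5.79% in female 4.

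Genes around the clusters were taken from a list of 19, all of which are in the count table, and 16 of them passed the filter. In the edgeR fit over all genes, 2 of the 16 were lower in males 2 to 4 and none was higher, beside 1.35% of all genes tested that were lower and 0.983% that were higher. The median log2 difference of the 16 genes was -0.21, beside -0.03 over all genes tested. *Adamts16*, a secreted metalloprotease gene on the *Irx1* side of the chromosome 13 cluster, had 99, 22, 93 and 145 counts in females 1 to 4 and 0 in males 2 to 4, but 112 counts in male 1. It passed the filter on low counts only through the females, the group in which it is high, so the count of 2 rests in part on the filter. It was at least 88.8-fold higher in females, taking the floor of 3 counts over males 2 to 4 (edgeR adjusted p = 0.0405). With all 8 samples its edgeR adjusted p was 0.83. At this bound *Adamts16* is still the lowest of the list, so the median stays at -0.21. *Ces1d*, a carboxylesterase gene beyond *Irx6*, fell by 1.04 on the log2 scale (SE 0.20, edgeR adjusted p = 0.048), from 83.5 ± 14.2 to 41.3 ± 6.86 CPM, and its adjusted p was 0.138 with all 8 samples. Each of these genes passed in 4 alternatives, of 13 for *Adamts16* (adjusted p from 2.79e-08 to 0.83) and of 14 for *Ces1d* (from 0.000159 to 0.276).

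*Fto*, an RNA demethylase gene known for long-range regulatory elements that act on *Irx3*, lay between 99.5 and 129 CPM in females and between 138 and 175 CPM in males 2 to 4, with male 1 at 114 CPM. The log2 difference was 0.48 (SE 0.14, edgeR adjusted p = 0.124). With DESeq2 its adjusted p was 0.0273, the only one of 14 alternatives in which it passed, and the highest was 0.508 with all 8 samples. *Crnde*, a noncoding RNA gene that starts 1.5 kb from *Irx5* on the other strand, was 1.48 ± 0.335 CPM in females (SD, n = 4) and 1.12 ± 0.646 CPM in males 2 to 4 (SD, n = 3), with a log2 difference of -0.43 (SE 0.55, edgeR adjusted p = 0.737). *Mmp2*, a gelatinase gene 146 kb beyond *Irx6* and its next listed neighbour, had a log2 difference of -0.83 (SE 0.32, edgeR adjusted p = 0.214). The highest level in the list was that of *Aktip*, at 153 CPM over the 7 samples. In *Mmp2*, males 2 to 4 lay below all females, but male 1, at 3.97 CPM, lay above them.

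**Figure D3:**
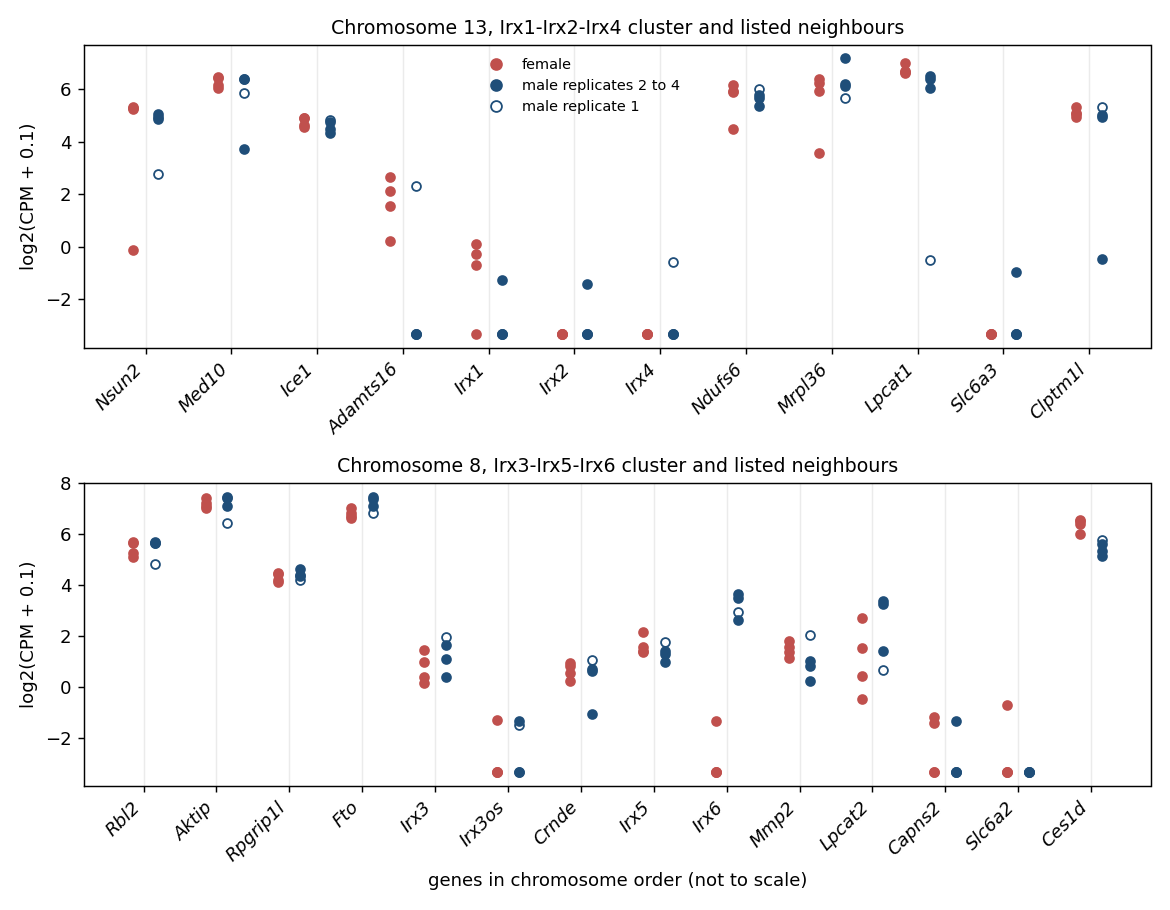
The genes of each cluster and the listed neighbours are drawn in chromosome order, not to scale, with log2(CPM + 0.1) of each sample on the vertical axis, females in red, males 2 to 4 in blue and male 1 open. *Irx6* is the member whose sexes separate, and *Adamts16* has counts in the females and in male 1 only. Single samples fall far below the rest in *Nsun2*, *Lpcat1* and *Clptm1l*.

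Some entries had few counts in 1 library only. *Nsun2* had 19 counts in female 1, *Lpcat1* 14 in male 1 and *Clptm1l* 16 in male 2, although each is otherwise well expressed. Over the whole table, between 1.70% and 2.63% of the genes with a median of at least 20 CPM in the other 7 libraries were more than 10 times below that median in a given library, which was 127 to 198 genes. The part of this feature of the table in the *Irx6* result was not tested.

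The other TALE homeobox genes, which share the homeodomain class of the Iroquois genes, were all 12 in the table and all tested. In the edgeR fit 1 of the 12 was lower in males and none was higher, beside 1.35% and 0.983% of all genes tested. Their median log2 difference was -0.13, beside -0.03 over all genes tested. *Tgif1*, a repressor of TGF-beta and retinoid responses, fell by 0.75 on the log2 scale (SE 0.14, edgeR adjusted p = 0.0457), from 116 ± 11.9 CPM in females to 70.4 ± 3.41 CPM in males 2 to 4. Male 1 was at 71.4 CPM, and with all 8 samples the adjusted p was 0.109. Over 14 alternatives *Tgif1* passed in 4, with adjusted p from 1.99e-05 to 0.262.

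Of the 16 listed homeobox genes known from pituitary development, all were tested, 2 were higher in males and none was lower, beside 0.983% and 1.35% of all genes tested. Their median log2 difference was 0.54, beside -0.03 over all genes tested. *Pitx1*, an activator of gonadotropin genes and the highest of the list, rose by 0.94 on the log2 scale (SE 0.16, edgeR adjusted p = 0.0417), from 666 ± 68.6 to 1305 ± 254 CPM, with male 1 at 841 CPM. *Pou1f1*, the factor of the somatotrope, lactotrope and thyrotrope lineages, rose by 1.96 (SE 0.37, edgeR adjusted p = 0.0494), from 26.7 ± 9.28 to 106 ± 40.1 CPM, with male 1 at 25.8 CPM. With all 8 samples the adjusted p was 0.186 for *Pitx1* and 0.278 for *Pou1f1*. Over 14 alternatives each passed in 4, and the adjusted p ranged from 7.4e-05 to 0.274 for *Pitx1* and from 0.000108 to 0.278 for *Pou1f1*.

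Markers of other pituitary cells moved with sex in males 2 to 4. The 2 somatotrope markers *Gh* and *Ghrhr* summed to between 12397 and 57867 CPM in females and between 65338 and 142305 CPM in males 2 to 4. The 2 thyrotrope markers *Tshb* and *Trhr* summed to between 21.4 and 85.2 CPM in females and between 238 and 345 CPM in these males. In male 1 the sums were 30152 CPM and 83.6 CPM, both within the female range, and its *Irx6* level was 7.55 CPM. Its gonadotrope marker sum was within the female range too, but the single markers were not. *Lhb* (9337 CPM) and *Fshb* (5760 CPM) lay above the female range, and *Cga* (12836 CPM), *Gnrhr* (473 CPM) and *Nr5a1* (16.3 CPM) lay below it. The sum of the 8 stromal markers was 120 to 130 CPM in males 2 to 4 against 135 to 192 CPM in females, and male 1 was at 128 CPM. The part of the somatotrope, thyrotrope, gonadotrope and stromal cells marked by these genes in the *Irx6* levels was not tested. The corticotrope, lactotrope, melanotrope, stem cell, pituicyte, endothelial, immune and erythroid sums overlapped between the females and males 2 to 4. No marker of any list was at 0 in all 8 samples.

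**Figure D4:**
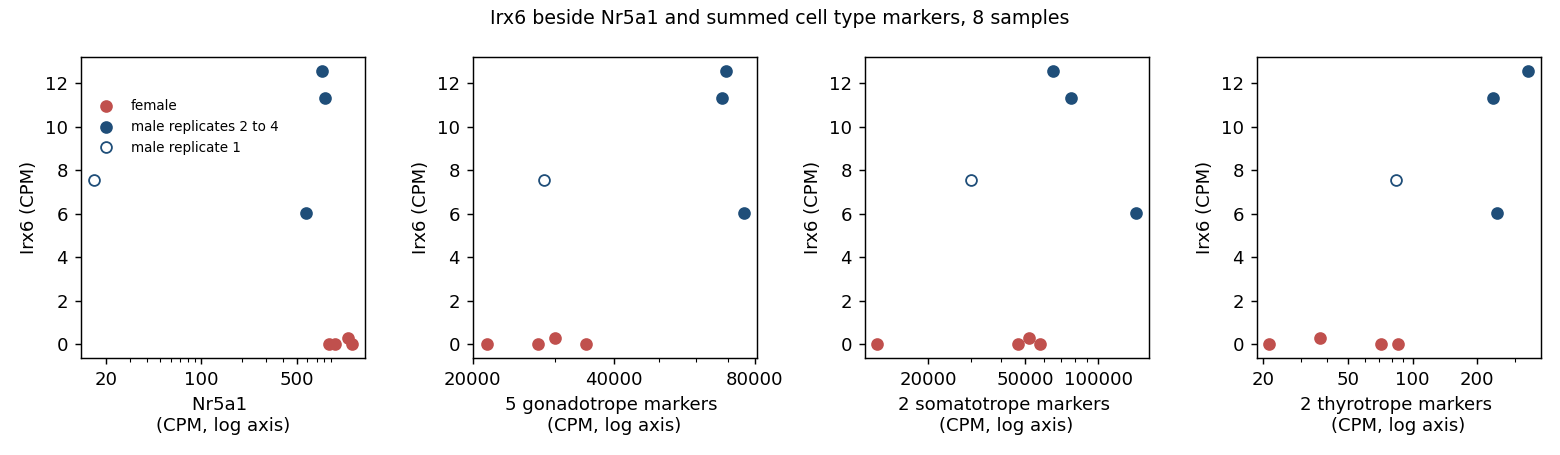
Each panel plots the CPM of *Irx6* in the 8 samples against *Nr5a1* or the summed CPM of the gonadotrope, somatotrope or thyrotrope markers, on a log horizontal axis and a linear vertical axis. Male 1, the open circle, lies within the female range in the 3 marker sums and far below it in *Nr5a1*, with 7.55 CPM of *Irx6*.

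The genes whose pattern was most like that of each detected member were found by the Pearson correlation of log2(CPM + 1) over females 1 to 4 and males 2 to 4, among 17090 genes with a mean of at least 1 CPM. With 7 samples and this many genes, high values arise readily, and they are given as a description. *Irx6* was near 0 in females, so its list favours genes that split the sexes, a difference known when the family was proposed. For *Irx6* the closest were *Fam110c* (r = 0.997), *Gata2* (r = 0.997), *Gla* (r = 0.997), *Gm4070* (r = 0.996) and *Gm15446* (r = 0.995). *Gata2*, a factor of the gonadotrope and thyrotrope lineages, was 65.6 CPM in females, 248 CPM in males 2 to 4 and 330 CPM in male 1, a sample not used for the correlation. *Fam110c* was 22.4, 64.9 and 33.4 CPM in the same order, and *Gm4070*, at 23.4 CPM in males 2 to 4, was at 0 in male 1. In that order *Gla* was 14.1, 25.4 and 22.8 CPM, and *Gm15446* was 21.7, 32.3 and 21.9 CPM.

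For *Irx5* the closest were *Lbh* (r = 0.988), *Idh3b* (r = 0.981), *Cnn1* (r = 0.978), *Sp1* (r = 0.973) and *Sfn* (r = 0.973). For *Irx3* they were *Hist1h2bf* (r = 0.986), *5330411J11Rik* (r = 0.958), *Aldh5a1* (r = 0.958), *Tmcc1* (r = 0.956) and *Gm44624* (r = 0.949). No gene appeared in more than 1 of the 3 lists.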

How the data were processed

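Gonadotropes were sorted as EGFP-positive cells from Ad4BP-BAC-EGFP mice, and RNA was sequenced in 4 female and 4 male samples. Libraries were made with a low-input kit that does not mark strand and sequenced as paired reads of 150 bases. The authors trimmed reads with cutadapt, mapped them to mm10 with STAR and deposited whole-number counts per gene, without normalization. The methods name featureCounts as the counter. Many entries carry names of the form that StringTie gives to assembled loci, and neither that step nor the annotation used for counting is given in the sources used here. The count table has 55523 entries, of which 23362 were at 0 in all 8 samples, and totals were between 18774578 and 31302588 counts.

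Members were found by symbol. The members and the gene lists were chosen with earlier results of these data known. CPM used TMM factors over 8 samples. The sexes were compared between male replicates 2 to 4 and the 4 female replicates by the quasi-likelihood test of edgeR (version 4.0.16, R 4.3.3) after filterByExpr, with Benjamini-Hochberg adjustment over all genes and a threshold of 0.05. The other steps used Python 3.11.15, pandas 2.3.3 and scipy 1.17.1. Exon lengths, positions and coding sequences came from GENCODE M21 on GRCm38. Named genes were the 6 members, every listed gene past the threshold, the gene of each list with the highest mean (1 such gene is not reported here), *Crnde*, *Fto* and the 5 genes most correlated with each member of at least 1 CPM. *Mmp2*, *Nsun2*, *Lpcat1*, *Clptm1l* and the genes present in males only were named after their values were seen. Alternatives were DESeq2 (version 1.42.0), upper-quartile scaling, library size alone, other filters on low counts, all 8 samples, a replicate block and leaving out each replicate.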

Additional observations from a re-analysis of the deposited data

Results flagged for a closer look

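Of the 46 groups of 4 samples examined, 8 held a sample whose gap to its nearest neighbour exceeded the 95% limit of Dixon's test. Chance flags about 1 in 20 such groups, or 2.3 here, but this figure does not hold for the 5 groups with 3 samples at 0, where a single sample with any count is always flagged. In 5 of them, 1 sample had few counts and the other 3 of its sex had 0. These were *Irx1* in male replicate 4 (0.318 CPM), *Irx2* in male replicate 4 (0.272 CPM), *Irx4* in male replicate 1 (0.568 CPM), *Irx6* in female replicate 4 (0.303 CPM) and *Irx3os* in female replicate 3 (0.307 CPM). *Irx1* and *Irx2*, neighbours on chromosome 13, thus had their male counts in the same library, at 7 and 6 counts. *Irx4* in male replicate 1 (0.568 CPM) is also a signal in a sample that the comparison of the sexes did not use, and no female had a count of it. The remaining 3 were marker sums. The gonadotrope sum of male replicate 1 was 28400 CPM, below the 67900 to 75700 CPM of its sex. The lactotrope marker *Prl* reached 18100 CPM in female replicate 2, above the 4670 to 6940 CPM of the rest, and the stromal sum of female replicate 1 was 192 CPM against 135 to 139 CPM.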

How the results depend on the processing

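The fitted log2 difference of *Irx6* kept its direction in the 13 alternatives in which it could be fitted, between 6.50 and 10.96, and that of *Irx5* in 14, between -0.66 and -0.21. *Irx1* could be fitted in 9 and stayed below 0, between -6.84 (without male replicate 4) and -1.81. *Irx3* reversed without male replicate 4, at -0.088, and was between 0.09 and 0.62 in the other 13. Mean levels and cluster shares moved by less than 1 SD, except that *Irx4* in males was 0.142 CPM with all 4 males. The numbers of genes called were 471 by edgeR in the main comparison, 2329 by DESeq2 (1066 higher in males), 808 with library size alone (133 higher in males, with the median of all genes shifted to -0.24), 177 with at least 1 count in total only, 67 with all 8 samples, and between 88 and 171 when 1 library was left out. *Irx6* was the 1 member called. The number of members called was 0 with at least 10 counts in every sample, where *Irx6* was not tested, and between 0 and 1 when 1 library was left out. TALE genes called were 3 with DESeq2 and with library size alone, 0 with all 8 samples and with at least 1 count in total only, and 0 when any 1 library was left out. Neighbours called were 3 with DESeq2, of which *Fto* was higher in males, 0 with all 8 samples and with at least 1 count in total only, 1 with at least 10 counts in every sample, and between 0 and 1 when 1 library was left out. Pituitary homeobox genes called were 4 with DESeq2, 1 with library size alone, 0 with all 8 samples and with at least 1 count in total only, and between 0 and 1 when 1 library was left out. In the settings with 0 calls, the genes at an unadjusted p under 0.05 numbered 0 to 2 members, 2 to 4 TALE genes, 1 to 6 neighbours and 4 to 5 pituitary homeobox genes. The matching number over all genes is given below for the replicate block only, so nothing is read from these counts. Except where a setting tested other genes or fewer samples, the cause of the shifts in the numbers of genes called was not tested.

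Same-numbered samples did not deviate together, with correlations between -0.0193 and -0.000805 over 3 pairs. The labels do not say whether same-numbered samples were handled together, and 3 pairs cannot settle it. With the replicate number as a replicate block, edgeR called 0 genes, 0 members, 0 TALE genes, 0 neighbours and 0 pituitary homeobox genes, and 2954 genes had an unadjusted p under 0.05. The log2 differences with the block were 6.81 for *Irx6*, -0.24 for *Irx5* and 0.09 for *Irx3*. At these depths, levels of *Irx1*, *Irx2* and *Irx4* under the floor of 3 counts could not be seen.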
